A study of Mus musculus with 2 samples.

Results

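The genes described here are 42 cell cycle genes, the members, followed across the cell types of the mouse colon. They were taken as a fixed list of gene symbols, and all 42 were listed in both deposited count tables, among 28695 genes listed in either table and 23197 listed in both. A cell was counted as cycling when it held at least 1 molecule of at least 4 members, and the share of such cells was taken in each cell type and library. A further 50 genes of DNA synthesis and 76 of mitosis, 7 cyclins and kinases of the G1 phase with their inducers, and 12 inhibitors of these kinases with the pocket proteins were followed beside the members.

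A dividing cell first licenses its replication origins by loading the Mcm helicase with the help of Cdc6 and Cdt1, then copies its DNA around the sliding clamp Pcna with nucleotides made by Rrm1, Rrm2 and Tyms. Cyclin A and the B cyclins with the kinase Cdk1 then drive mitosis, where the kinases Aurka, Aurkb and Plk1 build and control the spindle, Bub1 and Bub1b delay separation of the chromosomes, and Cdc20 and Ube2c serve the ubiquitin ligase (APC/C) that ends mitosis. In the healthy colon division is known mainly from the crypt base, from germinal centres and plasmablasts of the immune tissue and from activated T cells, while most stromal cells and mature neutrophils rest. The DNA synthesis genes are classically read from E2F sites in their promoters, and the mitosis genes from CHR elements and CCAAT boxes.

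Colon cells came from C57BL/6 mice aged 8 to 10 weeks that had been given DSS (dextran sulfate sodium), which damages the lining of the colon and is given to model colitis. One library was made from mice labelled Elf-1 KO (Elf-1-/-) and 1 from wild-type (WT) mice, so that DSS was shared by both and mice without DSS were not analysed here. Each library pooled cells of 3 mice from proximal colon, distal colon and rectum, dissociated by enzyme and captured on Singleron GEXSCOPE microchips. The design asks how the DSS-treated colon differs between these genotypes. Elf1 encodes an ETS transcription factor, and the deleted part of the gene, the cells in which it was deleted, and the dose and days of DSS are not stated in the labels used here.

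The library labelled knockout held 39750319 UMIs (unique molecular identifiers, by which copies of the same RNA molecule count once) in 10012 barcodes, and the WT library 32481613 in 8635. After filtering there were 9504 cells at a median of 2638 UMIs in the library labelled knockout and 7718 at 2029.5 UMIs in WT. Elf1 itself was at 180 CPM (the UMIs of a gene per 1000000 UMIs of a group of cells) in the library labelled knockout and 192 CPM in WT, a ratio of 0.942, and a 3' tag outside the deleted part would not check the label. The libraries shared 57 of the deposited barcode sequences, against 49.9 were they drawn freely from 1 set, and 44 of these were kept in both. Cells fell into 31 clusters, of which 30 were named from marker genes and 1 was not, and each name below stands for cells like that type. In every named class at least 10 markers of its list were detected in 10% of its cells or more in both libraries. In all, 18 of 29 epithelial markers were so in the 63 epithelial cells of the library labelled knockout. With 1 library per genotype and no map from cells to mice there was no replicate and no test. Cells of the 2 libraries are called labelled KO cells and WT cells, and ratios are labelled KO over WT. Intervals are 95% limits for counting error only, which leave out differences between mice. Those of CPM, CPM ratios and UMI shares take each UMI as independent. Many UMIs can come from the same cell, so these limits also leave out the spread between cells and are too narrow for it.

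The promoters of 6 members are printed to show the motifs by which genes of mitosis and of DNA synthesis are classically told apart. The windows below are the 150 bases before the start of transcription on mouse build GRCm38.p6 from RefSeq, printed 5′ to 3′ on the strand of the gene. Capitals mark matches, on either strand and with overlaps allowed, to the CHR element (TTTGAA or TTCGAA), the CCAAT box (CCAAT) and the E2F site (TTTGGCGC, TTTCCCGC, TTTCGCGC or TTTGCCGC). The regions are chr10:69352913-69353062 on the minus strand for Cdk1, chr2:164769779-164769928 on the plus strand for Ube2c, chr11:99024190-99024339 on the minus strand for Top2a, chr8:75109359-75109508 on the plus strand for Mcm5, chr1:128359706-128359855 on the minus strand for Mcm6 and chr19:38930840-38930989 on the plus strand for Hells. Cdk1, Ube2c and Top2a stand for mitosis, and Mcm5, Mcm6 and Hells for DNA synthesis.
Cdk1: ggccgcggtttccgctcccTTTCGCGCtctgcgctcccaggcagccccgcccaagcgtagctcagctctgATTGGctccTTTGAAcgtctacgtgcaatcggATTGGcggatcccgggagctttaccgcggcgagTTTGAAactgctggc
Ube2c: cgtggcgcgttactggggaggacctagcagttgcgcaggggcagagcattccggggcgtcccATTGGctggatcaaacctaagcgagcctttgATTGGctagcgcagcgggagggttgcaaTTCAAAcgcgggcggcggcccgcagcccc
Top2a: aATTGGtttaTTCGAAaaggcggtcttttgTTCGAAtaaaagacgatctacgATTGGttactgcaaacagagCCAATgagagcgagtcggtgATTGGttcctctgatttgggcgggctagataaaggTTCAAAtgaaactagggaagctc
Mcm5: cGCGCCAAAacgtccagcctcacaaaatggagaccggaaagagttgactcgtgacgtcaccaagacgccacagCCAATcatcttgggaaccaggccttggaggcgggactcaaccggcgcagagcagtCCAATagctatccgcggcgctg
Mcm6: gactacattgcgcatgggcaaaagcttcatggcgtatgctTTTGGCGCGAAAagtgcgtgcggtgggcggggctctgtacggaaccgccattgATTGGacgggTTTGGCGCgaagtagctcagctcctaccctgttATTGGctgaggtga
Hells: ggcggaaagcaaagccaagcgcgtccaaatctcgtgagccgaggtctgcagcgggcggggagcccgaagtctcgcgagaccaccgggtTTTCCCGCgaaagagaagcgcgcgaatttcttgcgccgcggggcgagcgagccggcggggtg

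The promoter of Cdk1 held 2 CHR elements, 2 CCAAT boxes and 1 E2F site in these bases, that of Top2a 3 CHR elements and 4 CCAAT boxes, and that of Mcm6 3 overlapping or separate E2F matches and no CHR element. Promoters were found in the table for 35 members. In windows of 250 bases before to 50 after the start, a CHR element lay in 14 of 18 mitosis members (77.8%), 3 of 15 DNA synthesis members (20%) and 21.7% of 27025 genes. A CCAAT box lay in 88.9% of these mitosis members, 73.3% of the DNA synthesis members and 41.1% of all genes. An E2F site lay in 1 mitosis member (5.56%, Cdk1), 9 of 15 DNA synthesis members (60%) and 2.6% of all genes. A match describes letters in a window and is not evidence that a factor binds there.

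Most cells held few members. In the library labelled knockout 3170 cells held none, 714 held 3 and 296 held 4, and in WT 1840 held none, 786 held 3 and 349 held 4. At the upper end 131 cells (1.38%) of the library labelled knockout and 473 (6.13%) of WT held 10 or more members, and the richest cell of each library held 41. Cells with 4 members were 3.11% of the library labelled knockout and 4.52% of WT. Cycling cells had medians of 7423 UMIs in the library labelled knockout and 5038.5 in WT, against 2511 in other labelled KO cells and 1784.5 in other WT cells, so depth moved with the count and shares are also given at an equal depth. They held 58.0% of the member UMIs of the library labelled knockout and 84.1% of those of WT. With cells called from the other 41 members, each of the 42 members was found more often in cycling than in other cells in both libraries. At 1000 UMIs per cell the median of these ratios was 60.4 in the library labelled knockout and 24.2 in WT, with Cdt1, the licensing factor, lowest at 2.39 in the library labelled knockout and Tubb5, a beta tubulin that most cells make, lowest at 2.88 in WT.

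**Figure D1:**
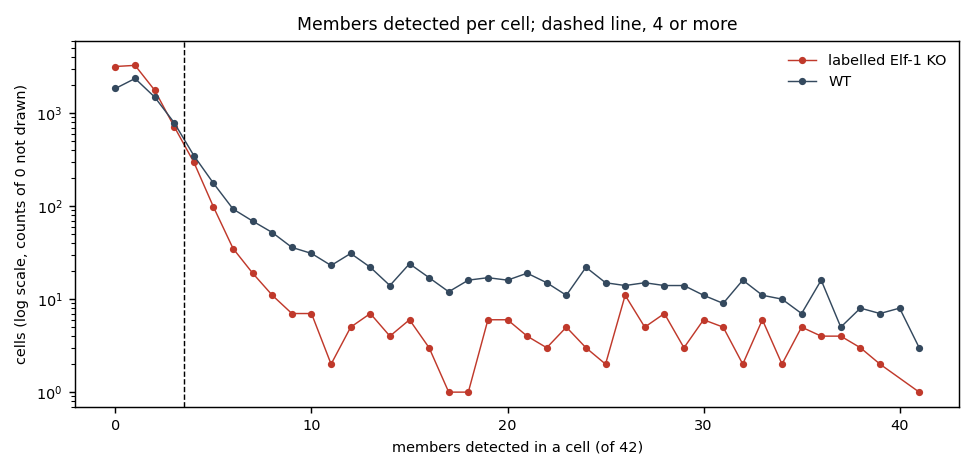
Number of cells (log scale) by how many of the 42 members were detected in a cell, for the library labelled knockout and WT. At 10 or more members there were 131 cells in the library labelled knockout and 473 in WT.

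Cycling cells were fewer in the library labelled knockout, at 597 of 9504 cells (6.28%, 5.80 to 6.79), against 1248 of 7718 (16.2%, 15.4 to 17.0) in WT. The ratio of the shares was 0.388 (0.352 to 0.429). When every cell was thinned to 1000 UMIs, the shares were 1.76% in labelled KO cells and 7.74% in WT cells (ratio 0.228). Most of the gap came with a pair of groups that were small in the library labelled knockout. The epithelium had 63 cells there and 1045 in WT, and B cell cluster 29, the germinal centre cells described below, 13 labelled KO cells and 229 WT cells. Outside both, 578 of 9428 cells (6.13%) cycled in the library labelled knockout and 620 of 6444 (9.62%) in WT, a ratio of 0.637 (0.568 to 0.715). When thinned the shares were 1.71% in labelled KO cells and 3.23% in WT cells.

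The cell types that made up the cycling cells differed. T and innate lymphoid cells were 29.3% of cycling cells in the library labelled knockout and 10.7% in WT, and fibroblasts 28.3% in labelled KO cells and 8.57% in WT cells. Epithelial cells were 1.84% of cycling cells in the library labelled knockout and 35.1% in WT, and B cells 7.04% in labelled KO cells and 24.5% in WT cells. These parts are at the depth sequenced. Of the cycling fibroblasts 60.4% in labelled KO cells and 46.7% in WT cells held DNA synthesis members and no mitosis member. Mki67 was found in 10.1% of cycling fibroblasts in labelled KO cells and 8.41% in WT cells. In cycling T and innate lymphoid cells it was found in 47.4% in labelled KO cells and 35.3% in WT cells. Within classes, the share of cycling cells was lower in the library labelled knockout with an interval below 1 in B cells, plasma cells, macrophages, dendritic cells, fibroblasts and smooth muscle cells. In endothelial cells it was 13.87% in labelled KO cells and 13.85% in WT cells, and T and innate lymphoid cells, at 18.4% in labelled KO cells and 14.8% in WT cells, had the higher share in the library labelled knockout with an interval that included 1. Neutrophils, which do not divide once mature, had 3 cycling cells of 1263 (0.238%) in the library labelled knockout and 0 of 165 in WT, which allows up to 1.82%, at medians of 1944 UMIs in labelled KO and 1339 in WT neutrophils. Of 4 members that passed in neutrophils, Pcna alone was at least 2-fold lower, at 17.7 CPM in the library labelled knockout and 42.3 in WT, where 9.18% of genes were, and none was 2-fold higher, where 11.6% of genes were.

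**Figure D2:**
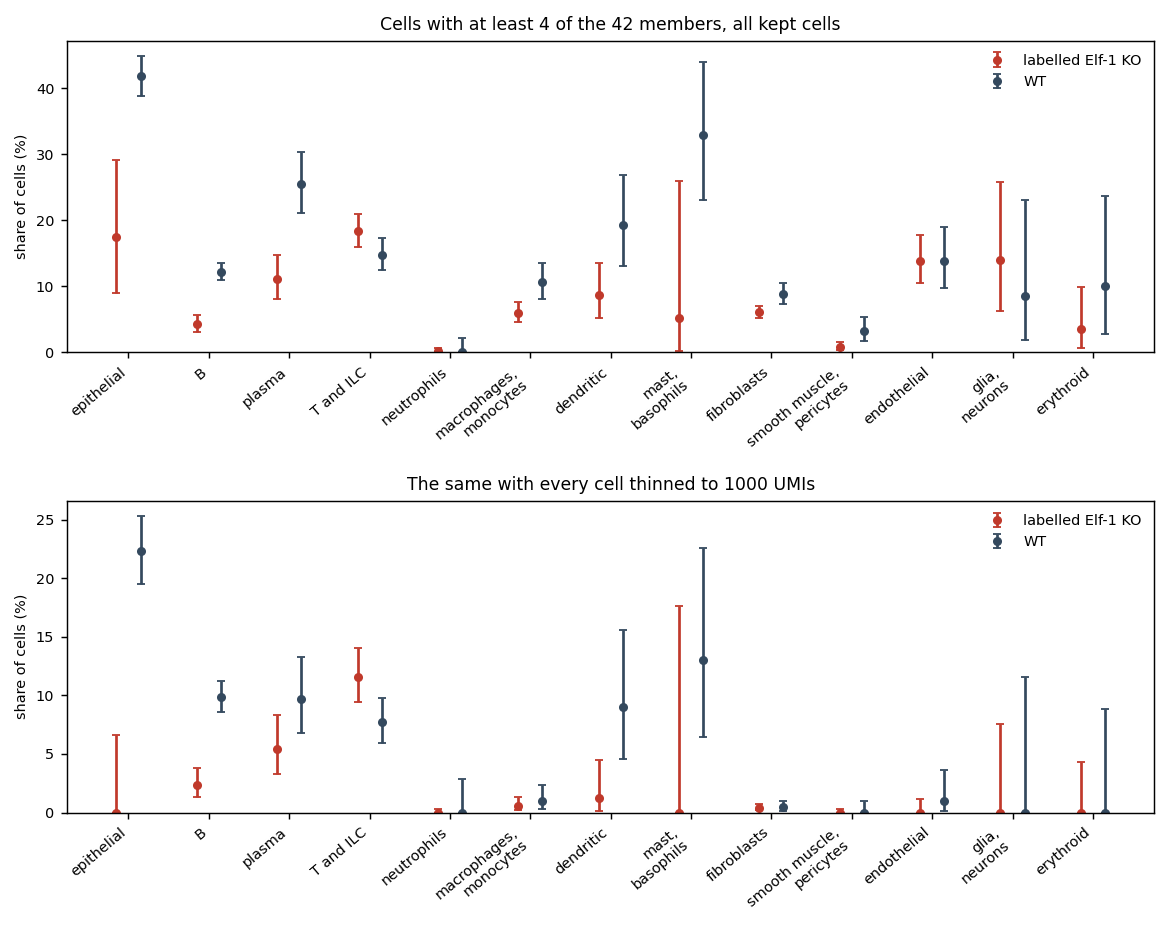
Share of cells with at least 4 of the 42 members (percent) in each class, at the depth sequenced (upper) and with each cell thinned to 1000 UMIs (lower), for the library labelled knockout and WT with exact 95% binomial intervals. B cells are at 4.27% in labelled KO cells and 12.2% in WT cells in the upper panel, and T and innate lymphoid cells at 18.4% in labelled KO cells and 14.8% in WT cells.

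Taken over all kept cells, the members summed to 814 CPM in the library labelled knockout and 2204 CPM in WT, a ratio of 0.369 (0.364 to 0.375). All 42 members were lower in the library labelled knockout, and 37 of them at least 2-fold, where 18.3% of all genes tested were that much lower. None was at least 2-fold higher, where 7.2% of genes were. The median member had a log2 ratio of -1.85 and the median gene -0.25. The kinetochore motor Cenpe was lowest, at 4.82 CPM in the library labelled knockout and 33.4 in WT (ratio 0.144), followed by Plk1 at 3.67 in labelled KO cells and 21.0 in WT cells (0.175). Cyclin A2 (Ccna2) came next, at 5.62 CPM in labelled KO cells and 31.2 in WT cells (0.180). Pcna, at 55.9 in labelled KO cells and 88.5 in WT cells (0.632), and Tubb5, at 162 in labelled KO cells and 263 in WT cells (0.616), were nearest to 1. The proliferation marker Mki67 was at 31.1 CPM in the library labelled knockout and 127 in WT. By role, the ratio over all cells ran from 0.242 (Mcm5) to 0.528 (Cdt1) among the 9 licensing genes, and from 0.225 (Asf1b) to 0.632 (Pcna) among the 8 genes of DNA synthesis, nucleotides and chromatin assembly, with Pclaf, a Pcna partner, at 0.229 and Uhrf1 at 0.240. It ran from 0.180 (Ccna2) to 0.338 (Ccnb2) in the cyclins and Cdk1, from 0.175 (Plk1) to 0.339 (Aurka) in the mitotic kinases, checkpoint and APC/C genes, and from 0.144 (Cenpe) to 0.512 (Cenpa) in the kinetochore and spindle genes. The widely expressed members Stmn1 and Hmgb2, a chromatin protein, were at 0.309 and 0.428. Outside the epithelium and cluster 29 the sum was 811 CPM in labelled KO cells and 1315 in WT cells (0.617). There 13 of 42 members were at least 2-fold lower, where 11.2% of genes were, and none 2-fold higher, where 5.85% were. These 13 included Mcm2, Mcm3, Mcm5 and Mcm6 of the helicase, Aurkb (2.76 CPM in labelled KO cells and 7.70 in WT cells, 0.358), Plk1 and both checkpoint genes Bub1 and Bub1b.

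**Figure D3:**
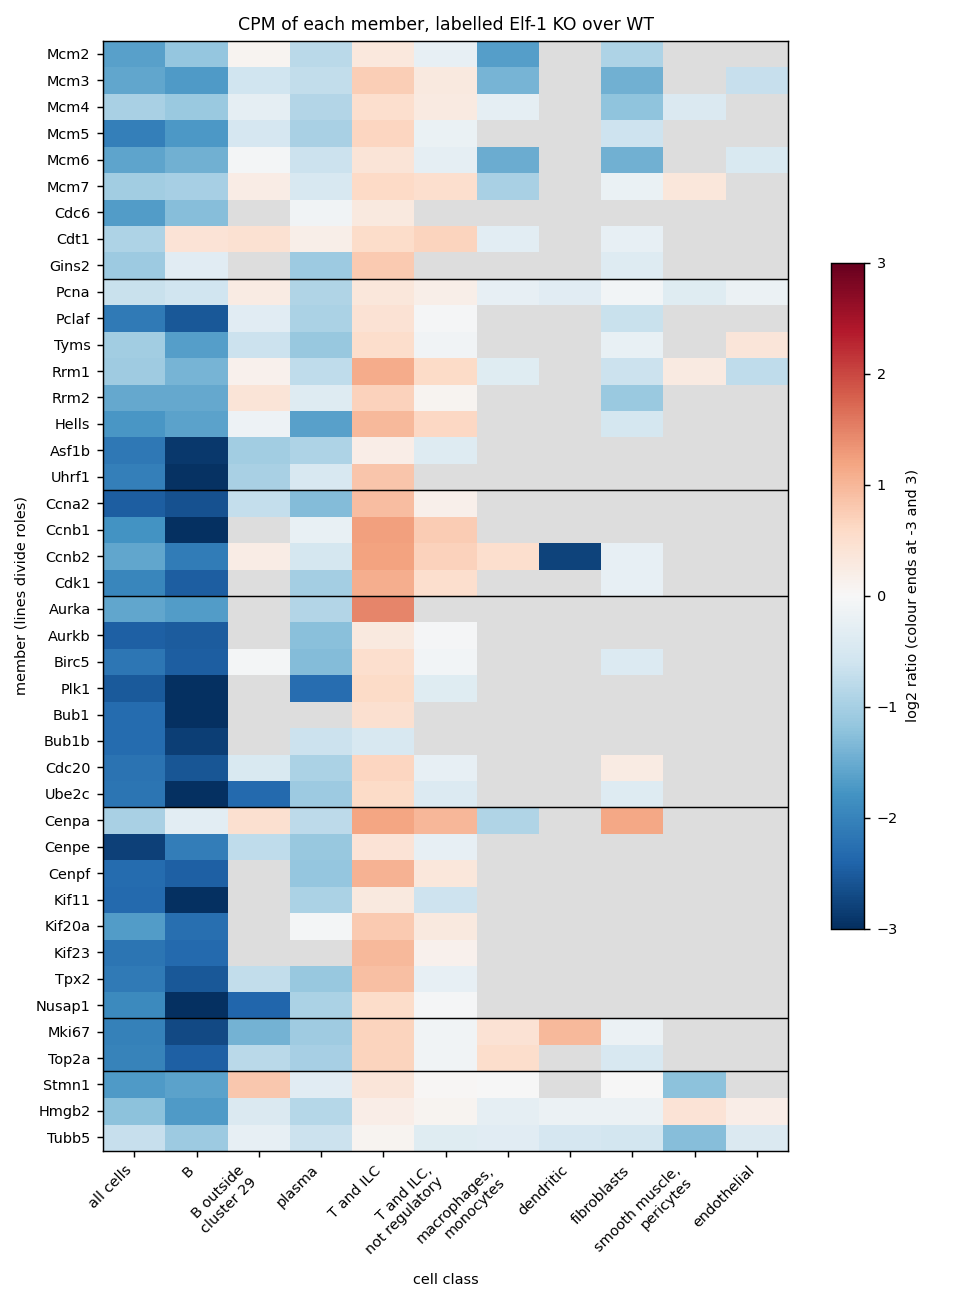
Log2 ratio of CPM, library labelled knockout over WT, for each member (rows, divided by role) in each group of cells (columns). Grey marks fewer than 50 UMIs in the group over both libraries. B cells are the bluest class, and most of the blue is gone outside cluster 29. T and innate lymphoid cells are red, and outside the regulatory sub-cluster the column is pale.

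The 2 libraries had their highest member levels in different classes. Levels were ranked in each library over the 12 named groups with at least 40 of its cells, which leaves out mast cells and basophils in the library labelled knockout and glia and neurons in WT. In the library labelled knockout T and innate lymphoid cells had the highest CPM for 38 of 42 members. The others there were Stmn1, a microtubule regulator, and Tubb5 in glia and neurons, Cdt1 in B cells and Uhrf1, which keeps DNA methylation through replication, in dendritic cells. The lead of Uhrf1 was narrow, at 29.5 CPM in dendritic cells and 28.6 in T and innate lymphoid cells. In WT, B cells had the highest level among the groups ranked for 29 members, mast cells and basophils for 6, epithelial cells for 5, T and innate lymphoid cells for Cenpa, the centromeric histone, and dendritic cells for Gins2, part of the replicative helicase. Stmn1 in glia and neurons, which were not ranked in WT, was at 536 CPM in the library labelled knockout and 518 in WT, where 8 of 57 labelled KO cells and 3 of 35 WT cells were cycling. Ube2c in erythroid cells was at 94.0 CPM in labelled KO cells and 136 in WT cells, with 3 of 86 labelled KO cells and 4 of 40 WT cells cycling.

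**Figure D4:**
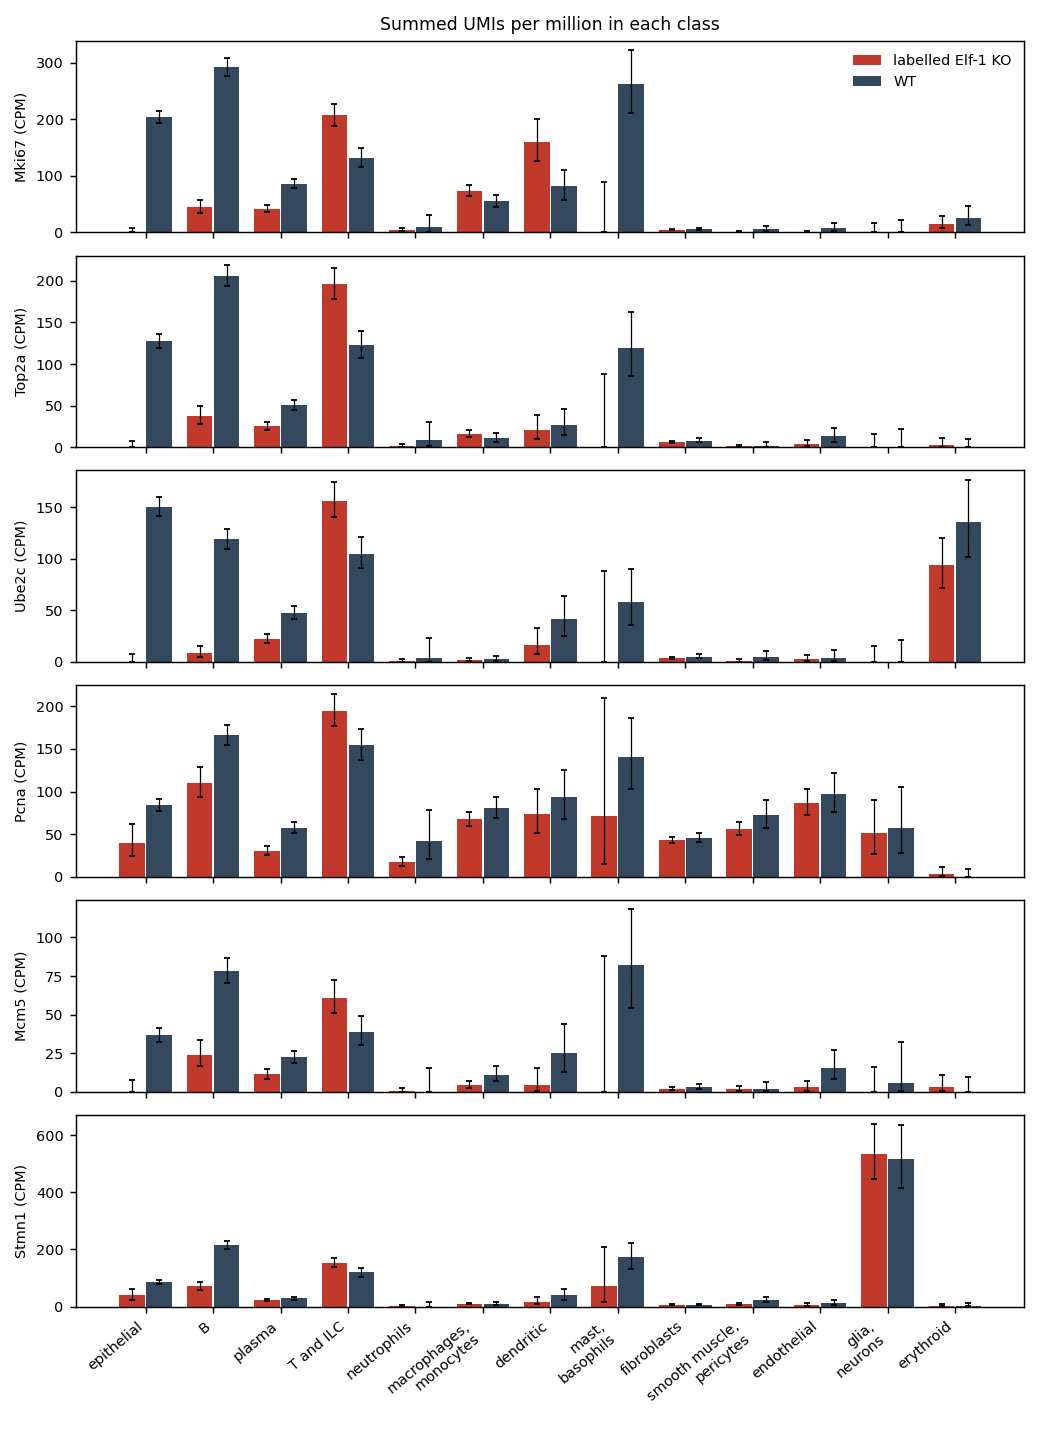
CPM of Mki67, Top2a, Ube2c, Pcna, Mcm5 and Stmn1 in each class, for the library labelled knockout and WT, with exact 95% Poisson intervals. Mki67 in T and innate lymphoid cells is at 207 CPM in labelled KO cells and 131 in WT cells, and in epithelial cells at 0 CPM in labelled KO cells and 204 in WT cells.

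In the epithelium the library labelled knockout held 6 UMIs of mitosis members, against 9932 in WT. Of its 63 epithelial cells 55 were enteroendocrine-like and none was goblet-like, whereas WT had 24 enteroendocrine-like and 102 goblet-like cells among 1045, so the 2 sets are not like cells. Cells lay mostly in cluster 24 (57) in the library labelled knockout and in cluster 17 (886) in WT. Of the 42 members, 23 had no UMI in the library labelled knockout, where a count of 0 of 502249 UMIs allows up to 5.97 CPM. Mki67, at 204 CPM in WT, was thus at least 34.1-fold lower, Ube2c, at 151 CPM in WT, at least 25.2-fold, and Top2a, the topoisomerase that untangles chromosomes, at 127 CPM in WT, at least 21.3-fold. Pcna was at 39.8 CPM in the library labelled knockout and 84.4 in WT, and Tubb5 was higher, at 269 CPM in labelled KO cells and 177 in WT cells. Cycling cells were 11 of 63 (17.5%) in labelled KO cells and 438 of 1045 (41.9%) in WT cells. When thinned there were 0 of 54 labelled KO cells, which allows up to 5.56%, and 180 of 807 WT cells (22.3%). In enteroendocrine-like cells alone the counts were 11 of 55 in the library labelled knockout and 4 of 24 in WT.

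B cells showed the widest difference in summed member CPM of any class compared, and it was smaller outside the germinal centre-like cells. In the share of cycling cells smooth muscle cells and pericytes were further apart (ratio 0.259). Members summed to 1677 CPM in the B cells of the library labelled knockout (984 cells) and 5290 CPM in WT (2499 cells), a ratio of 0.317 (0.304 to 0.331). Cycling cells were 42 (4.27%) in labelled KO cells and 306 (12.2%) in WT cells, a ratio of 0.349 (0.246 to 0.482). When thinned the shares were 2.36% in labelled KO cells and 9.89% in WT cells. All 42 members passed 50 UMIs in this class, and 37 were at least 2-fold lower in the library labelled knockout, where 8.21% of genes were. Of the others 1, Cdt1, lay above 1 and none was at least 2-fold higher, where 4.44% of genes were. With cell cycle genes kept in the clustering 21 were that much lower, and with cells thinned to 1000 UMIs 16. The 50-UMI filter was applied again to the thinned counts, so members below it there were left out. Thinned B cells held 329 UMIs of DNA synthesis and 129 of mitosis members in the library labelled knockout, and 1707 and 1450 in WT.

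The mitosis members of B cells were further apart than those of DNA synthesis, at 349 CPM in labelled KO cells and 1800 in WT cells (0.194) against 678 CPM in labelled KO cells and 1680 in WT cells (0.404). Among the mitosis genes the spindle motor Kif11 was at 1.45 CPM in the library labelled knockout and 47.0 in WT (0.0308), cyclin B1 (Ccnb1) at 2.17 in labelled KO cells and 48.2 in WT cells (0.0450), Plk1 at 2.17 in labelled KO cells and 40.2 in WT cells (0.0539) and Ube2c at 8.68 in labelled KO cells and 119 in WT cells (0.0727), each on 12 UMIs or fewer in the library labelled knockout. Among the genes of DNA synthesis Mcm2 was at 74.5 CPM in labelled KO cells and 168 in WT cells (0.444), Mcm5 at 23.9 in labelled KO cells and 78.2 in WT cells (0.305) and Pcna at 110 in labelled KO cells and 166 in WT cells (0.662). Mki67 was at 44.8 CPM in labelled KO cells and 293 in WT cells (0.153). Cdt1 went the other way, at 108 CPM in the library labelled knockout and 81.1 in WT (1.33, 1.09 to 1.61). In the further lists 24 of 44 measured genes of DNA synthesis and 50 of 63 of mitosis were at least 2-fold lower, beside 8.21% of all genes. The G1 cyclins and Cdks had 1 of 5 that much lower, and the Cdk inhibitors and pocket proteins 1 of 9.

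Cluster 29 held 13 cells of the library labelled knockout, 11 of them germinal centre-like, and 229 cells of WT, 213 of them germinal centre-like. It carried 1.04% of all member UMIs in the library labelled knockout and 28.8% in WT. Within it 8 of 13 cells cycled in the library labelled knockout and 190 of 229 in WT, and members summed to 6937 CPM in labelled KO cells and 15913.5 in WT cells. Mki67 was at 783 CPM in labelled KO cells and 1010 in WT cells there (0.775, 0.540 to 1.08) and Top2a at 326 CPM in labelled KO cells and 677 in WT cells (0.482, 0.268 to 0.8).

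Outside cluster 29, most B cells lay in cluster 9 in the library labelled knockout (801 cells) and in cluster 10 in WT (1601 cells). Cycling cells were 34 of 971 (3.50%) in labelled KO cells and 116 of 2270 (5.11%) in WT cells, a ratio of 0.685 (0.453 to 1.01). Members summed to 1496 CPM in the library labelled knockout and 1732 CPM in WT (0.863, 0.821 to 0.908). Of 29 members that passed 50 UMIs, 4 were at least 2-fold lower, where 4.63% of genes were, and none 2-fold higher, where 4.36% were. The lower members were Nusap1, a spindle protein, at 2.99 CPM in labelled KO cells and 15.7 in WT cells (0.191), Ube2c at 5.98 CPM in labelled KO cells and 29.9 in WT cells (0.2), Mki67 at 19.4 CPM in labelled KO cells and 52.3 in WT cells (0.372) and Asf1b, a histone chaperone, at 7.48 CPM in labelled KO cells and 15.4 in WT cells (0.486). Stmn1 was higher, at 62.8 CPM in labelled KO cells and 35.8 in WT cells (1.75, 1.32 to 2.33). So were Cenpa, at 66.6 CPM in labelled KO cells and 47.9 in WT cells (1.39, 1.06 to 1.81), and Cdt1, at 111 CPM in labelled KO cells and 81.1 in WT cells (1.37). Mcm2 was at 72.5 CPM in labelled KO cells and 68.6 in WT cells (1.06, 0.828 to 1.34). Pcna was at 111 CPM in labelled KO cells and 94.6 in WT cells (1.18, 0.965 to 1.43).

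Plasma cells, all in cluster 13, had 40 of 362 cycling cells (11.05%) in the library labelled knockout and 95 of 372 (25.5%) in WT, a ratio of 0.433 (0.291 to 0.632). Thinned, the shares were 5.40% in labelled KO cells and 9.66% in WT cells (0.559, 0.301 to 1.01). Members summed to 782 CPM in labelled KO cells and 1388 in WT cells (0.564), and 13 of 40 that passed were at least 2-fold lower, where 7.96% of genes were, and none 2-fold higher, where 3.25% were. Plk1 was at 3.18 CPM in the library labelled knockout and 15.4 in WT (0.207), Hells, a chromatin remodeller of dividing cells, at 10.2 in labelled KO cells and 31.5 in WT cells (0.324) and the Aurkb partner Birc5 at 14.5 in labelled KO cells and 36.0 in WT cells (0.404). Cdt1, at 13.2 CPM in labelled KO cells and 11.7 in WT cells, the kinesin Kif20a, at 6.36 CPM in labelled KO cells and 6.68 in WT cells, and Cdc6, at 6.58 CPM in labelled KO cells and 7.05 in WT cells, were near 1. The count turned on how cells were grouped: with cell cycle genes kept in the clustering, 0 members were at least 2-fold lower and Hells had a log2 ratio of 0.63. With TMM scaling, a library factor that centres most genes, 5 were that much lower. With thinned cells 1 was, but members below 50 UMIs after thinning were left out. Thinned plasma cells held 90 UMIs of DNA synthesis and 96 of mitosis members in the library labelled knockout, and 181 and 146 in WT. Markers of B cells summed to 7116 CPM in cycling and 2619 CPM in other plasma cells of the library labelled knockout, and to 5053 and 4060 CPM in WT. Erythroid markers summed to 11928 CPM in cycling and 3536 CPM in other plasma cells of the library labelled knockout, with 11 of 13 higher in cycling cells, and to 352 and 321 CPM in WT. Neutrophil markers summed to 2088 CPM in cycling and 779.8 CPM in other plasma cells of the library labelled knockout, with 16 of 21 higher, and to 55.8 and 91.7 CPM in WT. Their part in the result was not tested.

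T and innate lymphoid cells were the class in which members were higher in the library labelled knockout, and outside the regulatory T-like cells the sums were close. Members summed to 4974 CPM in the library labelled knockout (951 cells) and 3472 CPM in WT (899 cells), a ratio of 1.43 (1.39 to 1.48). They held 35.3% in labelled KO cells and 9.75% in WT cells of all member UMIs. Of 42 members 41 lay above 1 and 7 were at least 2-fold higher, where 5.21% of genes were, and none was at least 2-fold lower, where 3.45% of genes were. With thinned cells 2 were at least 2-fold higher. Cycling cells were 175 (18.4%) in labelled KO cells and 133 (14.8%) in WT cells, a ratio of 1.24 (0.987 to 1.57), and 11.6% in labelled KO cells and 7.71% in WT cells when thinned (1.5, 1.07 to 2.11).

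The cyclins and Cdk1 differed most among the roles in T and innate lymphoid cells, at 530 CPM in the library labelled knockout and 237 CPM in WT (2.24). Ccnb1 was at 67.3 CPM in labelled KO cells and 28.6 in WT cells (2.36, 1.71 to 3.29), cyclin B2 (Ccnb2) at 328 CPM in labelled KO cells and 142 in WT cells (2.31, 2.00 to 2.67) and Cdk1 at 77.4 CPM in labelled KO cells and 36.1 in WT cells (2.14, 1.61 to 2.89). The other 4 at least 2-fold higher were Aurka at 31.3 CPM in labelled KO cells and 11.3 in WT cells (2.77), Cenpa at 226 CPM in labelled KO cells and 99.7 in WT cells (2.27), the large subunit of ribonucleotide reductase Rrm1 at 104 CPM in labelled KO cells and 48.0 in WT cells (2.16) and Cenpf, a kinetochore protein, at 61.8 CPM in labelled KO cells and 30.2 in WT cells (2.05). All 9 licensing genes lay above 1, with Mcm3 at 102 CPM in labelled KO cells and 60.9 in WT cells (1.68) and Mcm2 at 130 CPM in labelled KO cells and 105 in WT cells (1.24). Mki67 was at 207 CPM in labelled KO cells and 131 in WT cells (1.58, 1.35 to 1.85). The checkpoint gene Bub1b alone lay below 1, at 12.4 CPM in labelled KO cells and 17.2 in WT cells (0.721, 0.416 to 1.24).

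Regulatory T-like cells numbered 148 in the library labelled knockout and 54 in WT, and 73 (49.3%) of them cycled in the library labelled knockout and 17 (31.5%) in WT, a ratio of 1.57 (0.915 to 2.83). The sub-cluster depended on the clustering: with cell cycle genes kept in it, the regulatory T-like cells were 100 in the library labelled knockout and 43 in WT, and 72 labelled KO cells and 35 WT cells fell into an unnamed sub-cluster led by mitosis genes. Their members summed to 8232 CPM in labelled KO cells and 6045 in WT cells (1.36, 1.27 to 1.46), and they carried 18.9% of all member UMIs in the library labelled knockout and 1.42% in WT. Ube2c was at 315 CPM in the regulatory cells of the library labelled knockout and 83.9 CPM in those of WT (3.75). Outside this sub-cluster 102 of 803 labelled KO cells (12.7%) and 116 of 845 WT cells (13.7%) cycled (0.925, 0.702 to 1.22). Members there summed to 3417 CPM in labelled KO cells and 3237 in WT cells (1.06, 1.02 to 1.10), and 1 of 36 that passed, Cenpa at 195 CPM in labelled KO cells and 97.1 in WT cells (2.01), was at least 2-fold higher, where 4.8% of genes were, and none 2-fold lower, where 3.54% were. Ccnb2, at 217 CPM in labelled KO cells and 134 in WT cells (1.62, 1.36 to 1.93), and Ccnb1, at 43.6 CPM in labelled KO cells and 25.9 in WT cells (1.68, 1.13 to 2.53), were still above 1, and Mki67 was at 110 CPM in labelled KO cells and 118 in WT cells (0.932).

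In the other 4 named sub-clusters the members summed lower in the library labelled knockout, with intervals that included 1 in CD8 T-like and gamma delta T-like cells. CD8 T-like cells had 27 of 96 (28.1%) cycling in labelled KO cells and 26 of 125 (20.8%) in WT cells and 7141 CPM in labelled KO cells and 7386 in WT cells of summed members (0.967, 0.910 to 1.03). CD4 T-like cells had 8 of 88 (9.09%) cycling in labelled KO cells and 56 of 410 (13.7%) in WT cells, and 1246 CPM in labelled KO cells and 2364 in WT cells (0.527). Innate lymphoid and NK-like cells had 5 of 132 (3.79%) cycling in labelled KO cells and 27 of 258 (10.5%) in WT cells, a ratio of 0.362 (0.109 to 0.954), and 1144 CPM in labelled KO cells and 2293 in WT cells (0.499). Gamma delta T-like cells were 109 in the library labelled knockout, 24 of them cycling, and 6 in WT, 2 of them cycling, with 4842 CPM in labelled KO cells and 5348 in WT cells (0.905, 0.736 to 1.12). Sub-clusters with no name held a further 378 labelled KO cells and 46 WT cells.

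In macrophages and monocytes 3 of 6 licensing genes that passed 50 UMIs were at least 2-fold lower in the library labelled knockout. The libraries lay in different sub-clusters, with 588 of 1001 labelled KO cells in one led by Chil3 and Mmp8 and 342 in one led by Mmp12 and Marco. Of 547 WT cells 220 lay in one led by Tppp3 and Flrt3 and 265 in one led by Hspa1b and H2-Eb1. Cycling cells were 60 of 1001 (5.99%) in the library labelled knockout and 58 of 547 (10.6%) in WT, a ratio of 0.565 (0.387 to 0.825), but 0.579% in labelled KO cells and 1.02% in WT cells when thinned. Members summed to 600 CPM in labelled KO cells and 755 in WT cells (0.795). Of 15 that passed 3 were at least 2-fold lower, where 6.07% of genes were, and all were Mcm helicase genes: Mcm2 at 6.43 CPM in labelled KO cells and 20.4 in WT cells (0.316), Mcm6 at 6.15 CPM in labelled KO cells and 17.3 in WT cells (0.355) and Mcm3 at 10.9 CPM in labelled KO cells and 28.5 in WT cells (0.382). None was 2-fold higher, where 5.24% of genes were. Mki67 was at 73.6 CPM in labelled KO cells and 54.5 in WT cells (1.35, 1.07 to 1.71) and was found in 66.7% of cycling macrophages of the library labelled knockout and 31.0% of those of WT. Over the whole class it was found in 13.1% of labelled KO cells and 9.69% of WT cells. Most macrophages with Mki67 were thus not counted as cycling in either library. The plasma cell markers summed to 7650 CPM in cycling and 4662 CPM in other macrophages of the library labelled knockout, with 10 of 14 higher in cycling cells, and to 40758 and 3731 CPM in WT, with 12 of 14 higher. Fibroblast markers summed to 4460 CPM in cycling and 1542 CPM in other macrophages of the library labelled knockout, with 19 of 25 higher in cycling cells, and to 541 and 616 CPM in WT, with 7 of 25 higher. The part of these markers in the shares was not tested.

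Dendritic cells had 17 of 195 (8.72%) cycling in labelled KO cells and 27 of 140 (19.3%) in WT cells, a ratio of 0.452 (0.231 to 0.860), and 1.27% in labelled KO cells and 9.02% in WT cells when thinned. Most dendritic cells of the library labelled knockout lay in cluster 0, led by Fscn1 and Ccl22 (133 labelled KO cells and 32 WT cells), and most of WT in cluster 25, led by Cd209a and Ccl17 (62 labelled KO cells and 108 WT cells). Only 5 members passed 50 UMIs. Of these Ccnb2 was at least 2-fold lower, at 21.1 CPM in labelled KO cells and 146 in WT cells (0.145), where 8.19% of genes were. Its UMIs lay in 1.54% of labelled KO cells and 5% of WT cells. None was 2-fold higher, where 12.1% of genes were, and Mki67 came nearest, at 160 CPM in labelled KO cells and 81.1 in WT cells (1.97). It was found in 19.0% of all labelled KO dendritic cells, more than the 8.72% that cycled, and in 15% of WT ones. Mast cells and basophils had 1 cycling cell of 19 in labelled KO cells and 28 of 85 in WT cells.

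Fibroblasts of the library labelled knockout lay in clusters 4, 6 and 11 (1007, 1230 and 451 of 2786 cells) and those of WT in cluster 5 (874 of 1212), so the 2 sets are largely different clusters. Cycling cells were 169 (6.07%) in labelled KO cells and 107 (8.83%) in WT cells, a ratio of 0.687 (0.536 to 0.884), but 0.392% in labelled KO cells and 0.436% in WT cells when thinned. Members summed to 410 CPM in labelled KO cells and 567 in WT cells (0.724). Of 25 that passed, 4 were at least 2-fold lower, where 13.5% of genes were, and 1 at least 2-fold higher, where 3.3% were, so the members' count was near that of all genes. The median member had a log2 ratio of -0.40 beside -0.35 for all genes. The lower members were helicase genes and the small subunit of ribonucleotide reductase: Mcm6 at 5.38 CPM in the library labelled knockout and 14.7 in WT (0.366), Mcm3 at 4.52 in labelled KO cells and 12.3 in WT cells (0.368), Mcm4 at 11.9 in labelled KO cells and 27.7 in WT cells (0.430) and Rrm2 at 1.77 in labelled KO cells and 3.86 in WT cells (0.460). The higher member was Cenpa at 4.09 CPM in labelled KO cells and 1.84 in WT cells (2.23), and Mki67 was at 4.70 CPM in labelled KO cells and 5.32 in WT cells (0.883). Among the kinase inhibitors Cdkn1a, which encodes p21, was at 140 CPM in the fibroblasts of the library labelled knockout and 49.9 in those of WT (2.81). Plasma cell markers summed to 28633 CPM in cycling and 5716 CPM in other fibroblasts of the library labelled knockout, with 9 of 14 higher in cycling cells, and to 2907 and 4090 CPM in WT, and their part was not tested.

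Smooth muscle cells and pericytes lay mainly in cluster 14 (1050 of 1207 cells) in the library labelled knockout and in cluster 15 (277 of 406) in WT. They had 10 cycling cells (0.828%) in labelled KO cells and 13 (3.20%) in WT cells. When thinned there were 0 of 1126 labelled KO cells, which allows up to 0.266%, and 0 of 375 WT cells, which allows up to 0.8%. Tubb5 and Stmn1 were the lowest of 7 members that passed, with ratios of 0.411 and 0.429, where 11.2% of genes were at least 2-fold lower and 6.09% higher. When cells were called without Stmn1, Tubb5 and Hmgb2, the ratio of the cycling shares was close to 1. The 13 erythroid markers summed to 299514 CPM in the 10 cycling and 10398 CPM in the other cells of the library labelled knockout, with 13 of 13 higher in cycling cells, and to 610 and 657 CPM in WT, and their part was not tested. Endothelial cells had 52 of 375 (13.87%) cycling in labelled KO cells and 32 of 231 (13.85%) in WT cells. When thinned there were 0 of 315 labelled KO cells, which allows up to 0.952%, and 2 of 196 WT cells. None of 7 members that passed was 2-fold apart in endothelial cells, where 6.59% of genes were lower and 3.84% higher, and the range was from Rrm1 (0.589) to Tyms, the thymidylate synthase (1.29). Of the cycling endothelial cells 82.7% in labelled KO cells and 56.3% in WT cells held DNA synthesis members and no mitosis member, and 0% in labelled KO cells and 9.38% in WT cells held Mki67. Plasma cell markers summed to 2391 CPM in cycling and 2573 CPM in other endothelial cells of the library labelled knockout, and to 34594 and 2730 CPM in WT, with 10 of 14 higher in cycling cells, and their part was not tested.

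The balance between the phases also differed by class. Of the UMIs on DNA synthesis and mitosis members together, DNA synthesis took 54.6% in the library labelled knockout and 44.1% in WT over all cells. In B cells it took 66.0% in labelled KO cells and 48.3% in WT cells. Within germinal centre-like cells it took 34.2% (27.6 to 41.3) in 13 labelled KO cells and 43.8% (42.9 to 44.7) in 221 WT cells. In T and innate lymphoid cells it took 43.8% in labelled KO cells and 48.5% in WT cells, and in regulatory T-like cells 42.2% in labelled KO cells and 55.8% in WT cells. The order was the other way in CD8 T-like cells, at 41.4% in labelled KO cells and 34.6% in WT cells, and in innate lymphoid and NK-like cells, at 70.7% (61.9 to 78.6) in labelled KO cells and 56.3% (52.5 to 60.1) in WT cells. In CD4 T-like cells the share was 70% (59.4 to 79.2) in 88 labelled KO cells and 59.4% (56.3 to 62.4) in 410 WT cells, with overlapping intervals. Cells that were not called cycling held mainly DNA synthesis members, at 75.4% in the library labelled knockout and 69.9% in WT. In the epithelium 56 of 62 such UMIs in the library labelled knockout (90.3%) were of DNA synthesis, against 29.8% in WT. In plasma cells the shares were 52.5% in labelled KO cells and 49.4% in WT cells, and the order reversed when cells were thinned.

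**Figure D5:**
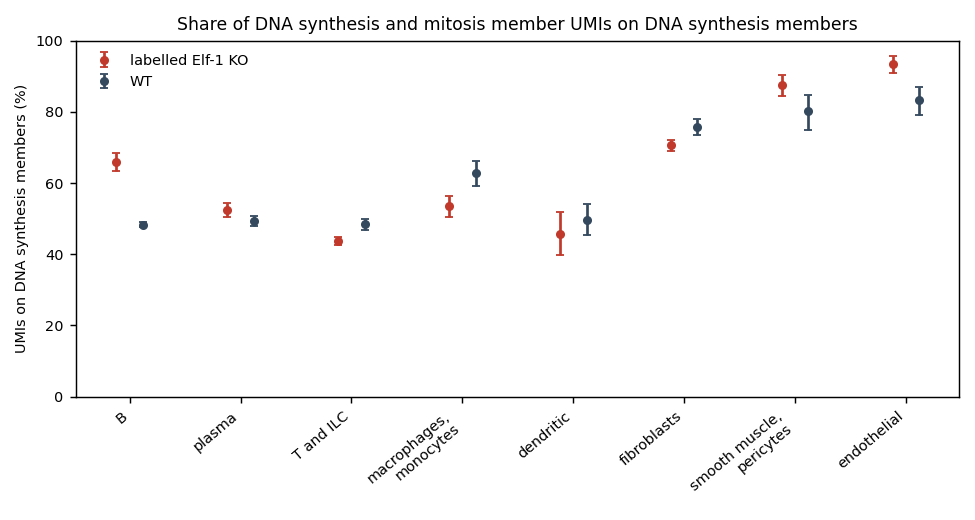
Share (percent) of the UMIs on DNA synthesis and mitosis members that lay on DNA synthesis members in each class compared, for the library labelled knockout and WT, with exact 95% binomial intervals. B cells are at 66.0% in labelled KO cells and 48.3% in WT cells, and T and innate lymphoid cells at 43.8% in labelled KO cells and 48.5% in WT cells.

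Genes outside all lists were ranked by their ratio of cycling over other cells in the library where that ratio was lower. First in T and innate lymphoid cells was the linker histone gene Hist1h1b, at 169 CPM in cycling and 2.49 CPM in other cells of the library labelled knockout, and at 255 and 9.75 CPM in WT. First in plasma cells was Lcp1, an actin bundling protein, at 307 CPM in cycling and 9.59 CPM in other cells of the library labelled knockout, and at 290.1 and 16.3 CPM in WT. Next was Hmgn2, a nucleosome binding protein, at 213 CPM in cycling and 6.22 CPM in other cells of the library labelled knockout, and at 133 and 7.62 CPM in WT. First in B cells was Selenoh, which encodes a selenoprotein, at 247 CPM in cycling and 49.97 CPM in other cells of the library labelled knockout, and at 383 and 71.1 CPM in WT.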

How the data were processed

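The authors deposited UMI counts for each gene and barcode, not normalized, and the submitters' processing notes name cutadapt 1.17, STAR 2.6.1a, featureCounts 2.0.1 and build GRCm38. Barcodes were kept with at least 500 UMIs, 200 genes and at most 25% mitochondrial UMIs. Doublets were called per library with scrublet in scanpy 1.11.5: 230 barcodes (2.36%) were removed from the library labelled knockout, and in WT, where the caller marked 0.0246%, the 406 barcodes (5%) with the highest scores. Of those removed, 15.2% of the library labelled knockout and 20.4% of WT would have counted as cycling. Cells were clustered with 2000 variable genes, 30 components, 15 neighbours and resolution 1.0 (igraph 0.11.9), leaving out the members, the listed cycle genes and further cycle genes seen to lead a first clustering. The naming rule was set after clusters were seen. T cells, B cells, macrophages, neutrophils and epithelial cells were clustered again at resolution 0.5 to name sub-clusters.

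Counts were summed per class and library, as CPM. Shares carry exact Clopper-Pearson, CPM exact Poisson and ratios exact conditional binomial intervals at 95% (python 3.11.15, numpy 2.4.6, pandas 2.3.3, scipy 1.17.1), and the exact binomial method was checked on simulated data. A count of 0 was taken as 3. Classes with at least 100 cells in both libraries were compared, which gave 9 of 13. A gene passed with at least 50 UMIs in a class over both libraries, so a member can pass through the library where it is high. Named genes are the 3 highest and 3 lowest ratios among members that passed in each class, 11 fixed members (Mki67, Top2a, Pcna, Mcm5, Rrm2, Ccnb1, Cdk1, Ube2c, Stmn1, Hmgb2 and Tubb5), the 3 highest and 3 lowest of each further list and 10 unlisted genes per class. Other members were named after their values were seen, and so were the Cdkn1a level in fibroblasts and the marker sums in cycling cells. Members and lists were chosen with earlier results of these data known. Thinning drew 1000 UMIs per cell and left out shallower cells, which left 8238 cells in the library labelled knockout and 6593 in WT. TMM factors were from edgeR 4.0.16 in R 4.3.3 and figures from matplotlib 3.10.9. There were 0 columns of other samples.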

Additional observations from a re-analysis of the deposited data

Results flagged for a closer look

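The summed member CPM, library labelled knockout over WT, lay above 1 with its interval in T and innate lymphoid cells, at 1.43, and below 1 in the other classes whose interval excluded 1. The ratios were 0.317 in B cells, 0.564 in plasma cells, 0.795 in macrophages and monocytes, 0.615 in dendritic cells, 0.724 in fibroblasts, 0.615 in smooth muscle cells and pericytes and 0.726 in endothelial cells. The opposite directions drew attention to these values. In fibroblasts the median of all genes was also lower in the library labelled knockout, near that of the members. TMM scaling moved log2 ratios up by 0.39 in fibroblasts, 0.30 in smooth muscle cells and pericytes and 0.20 in endothelial cells. The shares of cycling cells were nearly equal in endothelial cells, and in T and innate lymphoid cells the interval of their ratio included 1. The difference between classes was not tested, since there was 1 library per genotype, and the classes of a library share its cells, depth and dissociation.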

How the results depend on the processing

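No paired analysis was possible because there was 1 library per genotype. The alternatives were other thresholds of members, thinning, doublets kept, other mitochondrial limits and clusterings, no filter, means over cells, TMM and leaving out the widely expressed members. Of 583 alternative values 474 stayed near the main value, 104 moved and 5 reversed. For shares and single genes near meant inside the main interval. For member counts and for summed or median ratios a fixed fold was also allowed. Where the main value had an interval, a reversal was called only if that interval excluded no difference. Log2 ratios are labelled knockout over WT, and the cause of each move was not tested.

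The log2 ratio of cycling shares over all cells (main -1.36) was -0.93 with at least 3 members, -2.13 with 6, -2.14 thinned and -1.99 without Stmn1, Hmgb2 and Tubb5. Thinned, it was -2.06 in B cells (main -1.52), -2.83 in dendritic cells (main -1.15) and -0.15 in fibroblasts (main -0.54). With 6 members it was -2.48 in dendritic cells, -2.02 in endothelial cells (main 0.00) and -2.26 in macrophages (main -0.82). Without Stmn1, Hmgb2 and Tubb5 it was -2.16 in dendritic cells and -1.53 in endothelial cells, and reversed to 0.013 in smooth muscle cells (main -1.95). Of those chosen after seeing the data, 10 members gave -2.15 over all cells, -2.19 in B cells, 0.69 in T and innate lymphoid cells (main 0.31) and -3.65 in dendritic cells. Leaving out the epithelium and cluster 29 gave -0.65 (summed members -0.70, 13 lower), leaving cluster 29 out of B cells -0.55 (sum -0.21, 4 lower), and leaving out the regulatory sub-cluster -0.11 (1 higher).

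Of members at least 2-fold lower there were 37 in B cells, with 16 thinned and 21 with cell cycle genes in the clustering (summed log2 ratio -0.91, main -1.66). In plasma cells there were 13, with 5 under TMM, 0 with cell cycle genes in the clustering, 20 with doublets kept, 20 as means over cells and 1 thinned. In fibroblasts there were 4, with 2 under TMM, 7 as means, 8 with no filter and 1 thinned, and 1 was higher, with 0 when doublets were kept, 0 as means, 0 thinned and 3 with no filter. In T and innate lymphoid cells 7 were higher, and 2 thinned.

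The difference in the DNA synthesis share (percentage points) was 17.7 in B cells, with 7.74 when cycle genes were in the clustering and 11.06 in cycling cells only. In cycling cells only it was 5.04 over all cells (main 10.4), -19.76 in fibroblasts (main -5.19) and -15.17 in macrophages (main -9.25). With doublets kept it was -6.84 in T and innate lymphoid cells (main -4.66) and -2.24 in fibroblasts. Thinned it was 9.55 over all cells, -7.22 in T and innate lymphoid cells and -0.82 in fibroblasts, and reversed to -6.96 in plasma cells (main 3.19). Hells reversed in plasma cells with cycle genes in the clustering (0.63, main -1.63), and Hmgb2 in T and innate lymphoid cells thinned (-0.14) and as means over cells (-0.050, main 0.19).

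TMM moved the log2 ratio of every gene up by 0.25 over all cells, 0.19 in plasma cells, 0.36 in neutrophils, 0.13 in macrophages, 0.39 in fibroblasts, 0.30 in smooth muscle cells and 0.20 in endothelial cells. The shift was 0.04 in dendritic cells, -0.07 in B cells and -0.08 in T and innate lymphoid cells. At 1000 UMIs few or no stromal cells counted as cycling, so small shares there are bounded rather than measured. Why the stromal shares fell on thinning was not tested. Differences between mice, dissociation or depth and genotype cannot be told apart with 1 library each.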

Other observations

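Cyclin D1 (Ccnd1), which drives entry into the cycle with Cdk4, was at 3.22 CPM over all cells of the library labelled knockout and 62.3 CPM in WT, a ratio of 0.0517 (0.0427 to 0.0622). Outside the epithelium and cluster 29 it was at 3.08 CPM in the library labelled knockout and 20.5 CPM in WT (0.15), whereas Cdk4 was at 82.2 CPM in the library labelled knockout and 78.5 CPM in WT (1.05, 0.987 to 1.11). Myc was at 97.5 CPM in the library labelled knockout and 277 CPM in WT there (0.352), and Cdkn1a at 293 CPM in the library labelled knockout and 178 CPM in WT (1.65, 1.59 to 1.71). Lmnb1, which encodes lamin B1 and stood in the mitosis list, was at 135 CPM in the library labelled knockout and 73.4 CPM in WT there (1.84, 1.74 to 1.95).

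In macrophages and monocytes the scavenger receptor gene Marco was at 1570 CPM in cycling and 486 CPM in other cells of the library labelled knockout, and at 419 and 2.05 CPM in WT. The WT values of Marco rest on 210 and 3 UMIs, and how many cells held them was not examined. The immunoglobulin joining chain gene Jchain was at 1010 and 431 CPM in the library labelled knockout, and at 6757 and 281 CPM in WT.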
